A study of Homo sapiens with 6 samples.

Results

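The genes that encode the proteasome and its dedicated helpers were examined in MCF10A cells, a non-tumorigenic cell line established from human breast epithelium. They were taken as every symbol of the form PSMA to PSMG followed by a number, without the immunoproteasome subunits PSMB8, PSMB9 and PSMB10, which gave 45 of the 26822 gene symbols in the deposited table. The cells had been transfected for 72 hours with 30 nM of siRNAs against PAX9 (siPAX9) or of a non-targeting control (siNT), with 3 samples in each of the 2 groups. The study asked which mRNAs depend on PAX9, a transcription factor of RNA polymerase II, and sequenced poly(A)+ RNA. The knockdown was transient, no untreated cells were in these samples, and both groups had gone through the same transfection.

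The deposited table holds 1 FPKM (fragments mapped to a transcript, scaled to its length and to the number of mapped reads) per gene locus and group, which the authors made from the samples of that group. No value per sample or read count was available for these FPKM, and the authors' own test columns were not used, so no difference below has a replicate check or a test, and the depth behind each FPKM is unknown. Each change is therefore a description of these pooled values, written as the log2 of FPKM in siPAX9 over FPKM in siNT. PAX9 itself was listed at 2.80 FPKM in siNT and 0.325 in siPAX9, at a locus that overlaps SLC25A21. The epithelial genes KRT5 and CDH1 were at 1558 and 45.3 in siNT and at 1807 and 124.4 in siPAX9, and the leukocyte gene PTPRC was at 0.0166 and 0.0922. CD3E was listed at 0 in both groups, and the endothelial gene PECAM1 was at 2.58 in siNT and 0.495 in siPAX9. In RNA from whole cultures, fewer cells that express a gene and less of its RNA per cell cannot be told apart.

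The 26S proteasome is the ATP-dependent protease that degrades proteins marked with ubiquitin. Its 20S core is a barrel of stacked rings, in which outer rings of alpha subunits form a gate and inner rings of beta subunits carry the cutting sites. The 19S regulatory particle caps the barrel. Its base of ATPases unfolds the substrate and threads it into the core, and its lid removes the ubiquitin chain. Dedicated chaperones build each part, and other activators, such as PA28 and PA200, can take the place of the 19S cap. The subunits are needed in fixed ratios, and many of their genes are known targets of the transcription factor NFE2L1 (also called NRF1), which raises their transcription when proteasome activity is short.

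Of the 45 genes, 43 had a mean FPKM of at least 1 over the groups. The remaining pair, PSMA8 and PSMB11, which encode a testis and a thymus variant of core subunits, was listed at 0 in both groups. In siPAX9, 35 of the 43 (81.4%) were lower and 8 were higher. Over all 12595 named loci with a mean FPKM of at least 1, 55.2% were lower. The median change of the 43 genes was -0.27 on the log2 scale, against -0.07 over those loci. Most of the changes were small. Only PSMG1 was lower by 2-fold or more (2.33% of the 43, against 6.91% of all these loci), and 6 genes were lower by 1.5-fold or more (14%, against 16.7%). No member was higher by 1.5-fold, which 13.5% of all the loci were, and 6.75% of the loci were higher by 2-fold. The 6 genes were PSMG1, PSMG2, PSMB2, PSMA4, PSMA7 and PSMD3. The last pair lay close to the threshold, and both were short of it after centring on the median of all loci, as was PSMD3 after adding 1 to each FPKM. The proteasome genes as a whole were thus mostly on the lower side of the control by small amounts, and their share past either fold threshold was not above that of all loci.

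**Figure D1:**
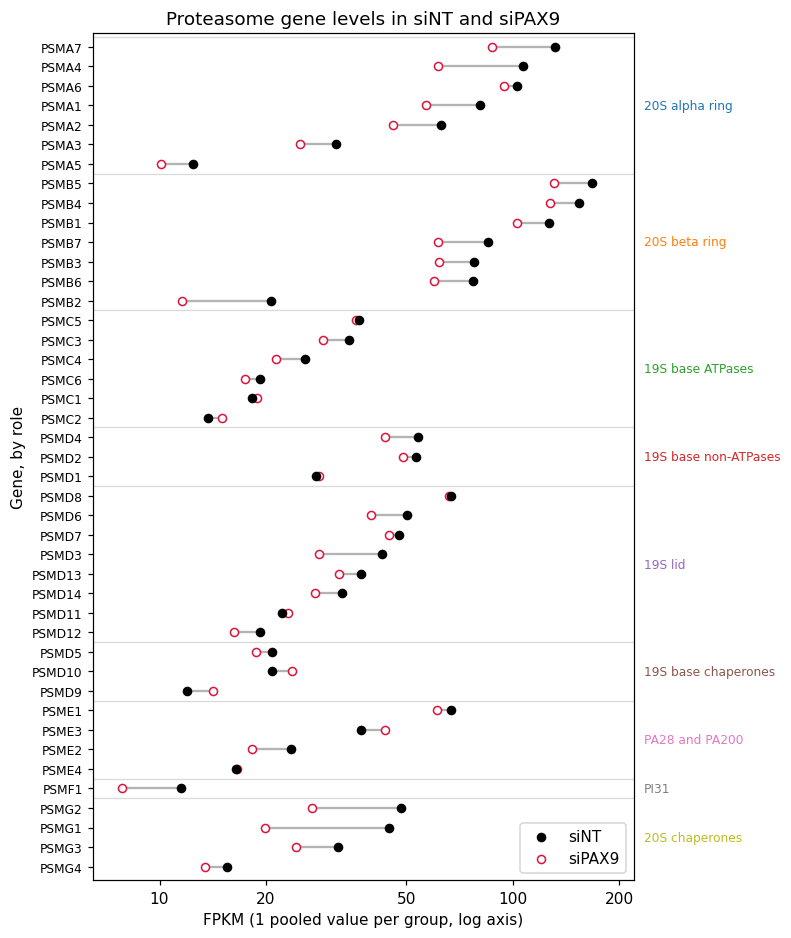
FPKM of the 43 measured proteasome genes, grouped by role, on a log axis. Filled points are the authors' pooled value in siNT and open points that in siPAX9, joined by a line. Every gene of the alpha and beta rings has its open point to the left, whereas genes of the base, the activators and the base chaperones have small shifts in both directions.

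All 14 genes of the 20S core were lower in siPAX9, with a median change of -0.36 and a range from -0.83 to -0.13. Of all named loci, 55.2% were lower. Most core genes had a mean FPKM above 50. There, 66.7% of loci between 50 and 100 and 69.9% at 100 and above were lower. Among the alpha subunits, PSMA4 had the lowest change at -0.79, with 106.6 FPKM in siNT and 61.6 in siPAX9. PSMA7 went from 131.8 to 87.1, a change of -0.60. PSMA1 had 80.9 in siNT and 56.8 in siPAX9. These subunits sit side by side with the other alpha subunits in the ring that gates the core. PSMA2 had 62.6 FPKM in siNT and 45.7 in siPAX9, and PSMA3 had 31.7 and 25.02. PSMA5 had the lowest level of the ring, at 12.5 and 10.1. PSMA6 had the smallest change of the core, -0.13, at 102.96 and 94.2. The median of the ring was -0.46.

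The beta ring holds the cutting sites. PSMB5, the subunit with chymotrypsin-like activity and the main target of the drug bortezomib, had the highest FPKM of all members, 168.1 in siNT, and 130.7 in siPAX9. PSMB6, which cuts after acidic residues, had 77.2 and 60.0, and PSMB7, the trypsin-like subunit, had 85.3 and 61.2. The changes of these catalytic subunits were -0.36, -0.36 and -0.48, close to the ring's median of -0.36. The others of the ring have no active site of their own. Of these, PSMB2 had the lowest change of the core, -0.83, from 20.6 to 11.6. PSMB1 was at 126.98 in siNT and 102.8 in siPAX9, PSMB3 at 77.6 and 61.9, and PSMB4 at 153.6 and 127.4. PSMB4 had the change nearest to 0 in the ring, -0.27.

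FPKM is scaled to transcript length, which allows levels to be set side by side between genes. Levels of genes with near-identical pseudogene copies, described further on, are uncertain, and 7 genes of the 19S particle (PSMC2, its lowest, among them) and 3 of the core have such copies. Although core subunits assemble in equal numbers, their highest FPKM exceeded the lowest by 13.5-fold in siNT and by 13.0-fold in siPAX9. PSMB5 was the highest and PSMA5 the lowest in both groups. Their annotated canonical transcripts have 1044 and 3815 bases. Across the 43 members, Spearman's rho between transcript length and mean FPKM was -0.58. How far these levels depend on the transcript length used for scaling was not tested. The 17 measured genes of the 19S particle covered a narrower range, 4.87-fold in siNT and 4.40-fold in siPAX9. The median FPKM was 83.1 for the core and 34.3 for the 19S particle in siNT, and 61.4 and 28.3 in siPAX9.

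**Figure D2:**
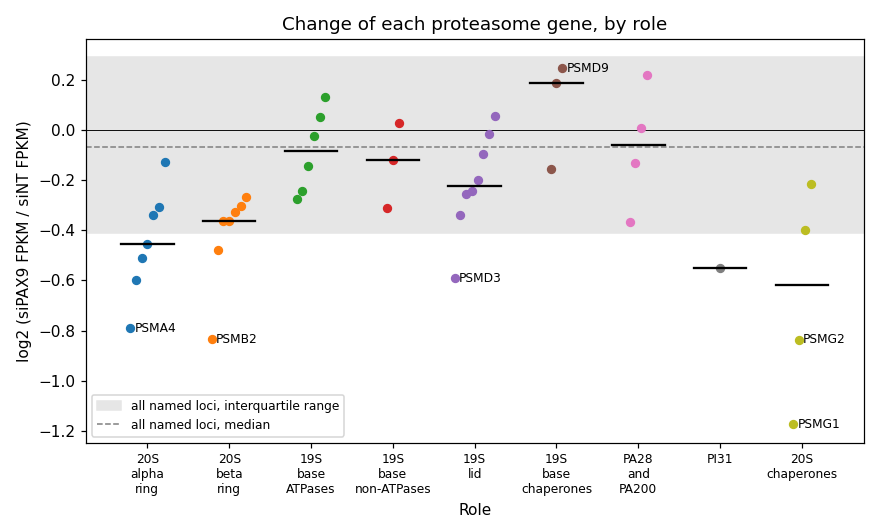
log2 of siPAX9 FPKM over siNT FPKM for each measured proteasome gene, by role. Bars are the median of each role, the grey band is the interquartile range of all named loci with a mean FPKM of at least 1, and the dashed line is their median, -0.07. The core rings and the 20S chaperones lie wholly below 0, and the 19S groups straddle it.

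The 19S particle was nearer to the control than the core. Of its 17 genes, 13 were lower and 4 higher, with a median of -0.14 and a range from -0.59 to 0.13. This range overlapped that of the core, and the difference between the medians could not be tested. The 19S median was -0.0746 after centring on the median of all loci and -0.22 without genes that have a pseudogene copy. The base ATPases form the ring that unfolds substrates, and their median was -0.08, or -0.0158 after centring and -0.24 without genes that have a copy. PSMC4 had the lowest change, -0.28, with 25.8 in siNT and 21.3 in siPAX9, and PSMC2 had the highest, 0.13, with 13.7 and 14.98. PSMC3 had an FPKM of 34.3 and 28.98. PSMC1 had 18.2 and 18.9, PSMC5 had 36.7 and 36.1, and PSMC6 had 19.3 and 17.5. Of the ATPases, 4 were lower and 2 higher, against 55.2% of all loci lower. The higher pair, PSMC1 and PSMC2, have pseudogene copies and uncertain levels. PSMC6 has copies too and was lower, at -0.14. PSMC3, PSMC4 and PSMC5, for which no copy was found, were lower, PSMC5 by only -0.02. The other base subunits serve as scaffolds and ubiquitin receptors. PSMD4, a receptor for ubiquitin chains, had 53.8 and 43.3, a change of -0.31. PSMD1 and PSMD2, the large scaffolds of the base, had 27.7 and 28.2, and 53.1 and 48.9, with changes of 0.03 and -0.12.

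In the lid, 7 of 8 genes were lower, with a median of -0.22. Of all named loci, 55.2% were lower, and 61% of those with a mean FPKM of at least 10. PSMD14, the deubiquitinase that cuts the chain from the substrate, had 32.7 FPKM in siNT and 27.5 in siPAX9, a change of -0.25. PSMD3 had the lowest change of the 19S particle, -0.59, from 42.7 to 28.3. PSMD11 had the highest of the lid, 0.06, from 22.3 to 23.1. The other lid genes are structural subunits. PSMD6 had 50.2 and 39.6, PSMD7 had 47.8 and 44.7, and PSMD8 had 66.7 and 65.9. PSMD12 had 19.2 and 16.2, and PSMD13 had 37.1 and 32.3. PSMD3 stood apart from the other lid genes, of which the next lowest, PSMD6, was at -0.34.

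The lowest change of all members was in a chaperone and not in a subunit. PSMG1 and PSMG2 (also called PAC1 and PAC2) pair up to start the alpha ring, and PSMG3 and PSMG4 form a second pair that acts with them. PSMG1, on chromosome 21 from 40547372 to 40555440 of hg19, had 44.7 FPKM in siNT and 19.8 in siPAX9, a change of -1.17, or 2.26-fold lower. PSMG2, on chromosome 18 from 12658738 to 12725739, had 48.1 and 26.9, a change of -0.84, or 1.79-fold lower. Both partners of the starting pair were therefore among the 3 lowest changes of the 43 genes, with PSMB2 close to PSMG2. PSMG3 was at 32.1 and 24.3 and PSMG4 at 15.6 and 13.4, with changes of -0.40 and -0.21. POMP, which is not a member and helps the beta subunits to join the alpha ring, was at 39.3 and 35.2, a change of -0.16. Without PSMG1 to PSMG4, the median of the other 39 members was -0.25.

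The chaperones of the 19S base did not share this pattern of values. PSMD10 (gankyrin) was higher, at 20.8 in siNT and 23.7 in siPAX9, and PSMD9 (p27) was at 11.9 and 14.1. PSMD5 was at 20.8 and 18.7. Their changes were 0.19, 0.25 and -0.15, and that of PSMD9 was the highest of all members.

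Promoters of the lowest and the highest members were read for the element TGACNNNGC, the core of the sequence that NFE2L1 and NFE2L2 bind. The windows were the 250 bases before each RefSeq start, and 39 of the 45 genes had at least 1 window in the table used. The element is shown here for PSMG1, PSMG2 and PSMD9, which span the members' range of change, with the element in capitals and read in the direction of transcription. The PSMG1 stretch, of 59 bases like the others, lies on chr21:40555527-40555585 (minus strand), that of PSMG2 on chr18:12658673-12658731 (plus strand) and those of PSMD9 on chr12:122326522-122326580 and chr12:122326569-122326627 (plus strand), all on GRCh37 by exact match of the RefSeq GRCh38.p14 sequence.
PSMG1: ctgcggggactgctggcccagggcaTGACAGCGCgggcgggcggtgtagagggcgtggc
PSMG2: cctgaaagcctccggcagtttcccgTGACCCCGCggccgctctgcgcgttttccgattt
PSMD9, far element: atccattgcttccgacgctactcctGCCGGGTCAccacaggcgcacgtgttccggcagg
PSMD9, near element: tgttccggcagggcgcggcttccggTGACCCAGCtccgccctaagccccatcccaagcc
In the far stretch of PSMD9 the element is read on the opposite strand, and the PSMD9 stretches overlap each other within the same window.

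The element was in 12 of the 47 windows of members (25.5%), 1 window for each of 12 genes, and in 10.9% of all 35116 windows in the table, on either strand. Of the 5 genes past 1.5-fold that had a window, 4 held it, namely PSMG1, PSMG2, PSMA4 and PSMD3 (the last short of the threshold when centred), and PSMB2 did not. It was also in PSMD9, PSMC5 and PSME4, whose changes were 0.25, -0.02 and 0.01. The 12 genes had a median change of -0.29 and the 25 measured genes with windows that lacked it had -0.21. Among the 8 higher genes, PSMD9 and PSME4 were the ones that held it. The GC box GGGCGG was in 63.8% of member windows against 42.6% of all, the ETS core CCGGAAG in 23.4% against 8.52%, and the CCAAT box in 38.3% against 32%. The study searched longer upstream regions for known PAX9 binding sequences with a motif program. Here, 3 of these sequences, not the longest, were looked for as exact matches in the 250 bases. Of them, GCGTGACCA and GCGGAACGG had 0 matches in the members' windows, and were in 0.137% and 0.188% of all windows. The third, of 10 bases, also had 0 matches in the members and was in 0.0484% of all windows. For sequences this rare, 0 matches in 47 windows was likely for any set of genes, so no conclusion is drawn from it.

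Genes of the alternative activators gave values on both sides of 0. PSME3 (PA28 gamma), which forms a nuclear cap, was at 37.2 FPKM in siNT and 43.3 in siPAX9, a change of 0.22. PSME4 (PA200) was at 16.4 and 16.5, a change of 0.01. PSME1 and PSME2 (PA28 alpha and beta) form the cap induced by interferon. PSME1 was at 66.7 and 60.9, a change of -0.13, and PSME2 at 23.6 and 18.3, a change of -0.37. The PSME2 row also carried MIR7703, the only member row with another symbol. PSMF1 (PI31), a regulator that binds the core, had the lowest level of the 43 measured genes, 11.5 and 7.84, and a change of -0.55.

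Among all named loci, those with a higher FPKM were more often lower in siPAX9, so the members were set beside loci of their own level. Of the 6516 named loci with a mean FPKM of at least 10, 61% were lower, 16.9% by 1.5-fold or more and 5.43% by 2-fold or more. Higher by 1.5-fold were 8.61% of them, and by 2-fold 3.82%. All measured members but PSMF1 were above this level. Between a mean FPKM of 10 and 20, the median change was -0.15 for 10 members and -0.08 for 2797 loci. Between 20 and 50 it was -0.26 for 18 members and -0.13 for 2369 loci, and between 50 and 100 it was -0.34 for 10 members and -0.20 for 756 loci. At 100 and above it was -0.33 for 4 members, PSMA7, PSMB1, PSMB4 and PSMB5, and -0.34 for 594 loci. The members' medians were below those of the loci in the lower bands and level with them in the highest. From the lowest band up, 6 of 10, 14 of 18, 10 of 10 and 4 of 4 members were lower. The shares of loci that were lower were 57.3%, 61.3%, 66.7% and 69.9%, so in the lowest band the members were near the share of the loci. Across the 43 members, Spearman's rho between change and mean FPKM was -0.28, and between change and the length of the canonical transcript it was 0.26. Within the 14 core genes these rho had the opposite signs, 0.27 and -0.51, and within the 17 genes of the 19S particle they were -0.28 and 0.45. Over 11681 symbols they were -0.15 and 0.12. Points share the same pooled libraries, and the core transcripts, with a median of 1004 bases, were both shorter and higher than those of the 19S particle, with 1754 bases.

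**Figure D3:**
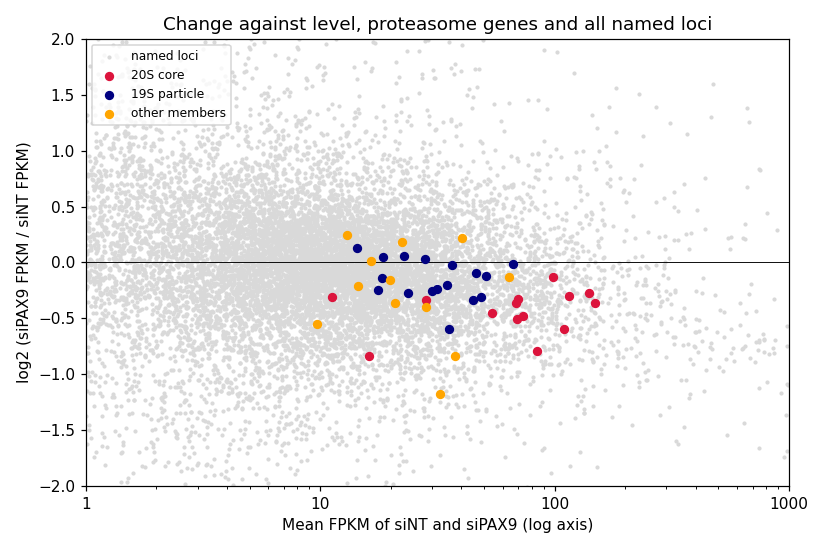
Change (log2 of siPAX9 over siNT FPKM) against mean FPKM of the groups, on a log axis, for named loci (grey), genes of the 20S core (red), of the 19S particle (blue) and the other members (orange). Loci beyond 2 on the change axis or above an FPKM of 1000 (587 loci) are not drawn. Core genes sit mostly to the right of the 19S genes and below 0.

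Several proteasome genes have copies elsewhere in the genome, and reads of near-identical copies can be split between loci. Loci of the table with no gene symbol and up to 2000 bases were compared with the canonical transcripts of the 45 genes. Of the 31 loci that matched at 90% identity or more over at least 80% of their length, 24 lay in an annotated pseudogene, and these belonged to 12 members. Of the 24, 20 had a higher FPKM in siNT than the gene they matched, although 9 of them were under 200 bases, and FPKM divides by this small length. The 7 longest, of at least 500 bases, belonged to PSMC1, PSMC2, PSMC6, PSMD10, PSMD12 and PSME2. The locus that matched PSMC1 with 99.8% identity over 1561 bases, on chromosome 3 from 68684832 to 68686404 within PSMC1P1, had 39.95 FPKM in siNT and 38.98 in siPAX9, above the 18.2 and 18.9 of PSMC1 itself. For PSMC6, a locus of 1178 bases with 98.3% identity had 42.8 and 41.7, against 19.3 and 17.5. The PSME2 matches in PSME2P2 and PSME2P1 had 73.3 and 65.8, and 43.8 and 38.9. The levels of these genes are therefore uncertain.

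**Figure D4:**
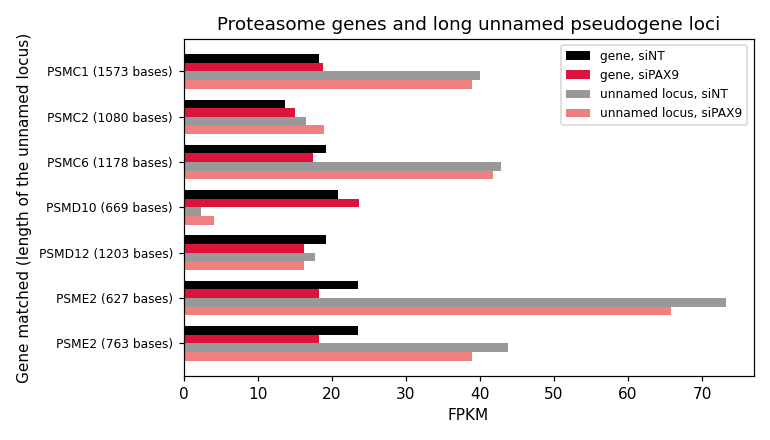
FPKM of proteasome genes (black, siNT; red, siPAX9) beside the unnamed pseudogene loci of at least 500 bases that match their transcripts (grey, siNT; pink, siPAX9), each bar being 1 pooled value. The loci that match PSMC1, PSMC2, PSMC6 and PSME2 exceed the genes in both groups, and that of PSMD10 lies far below its gene.

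The changes of the long copies were -0.04 for the PSMC1 locus, 0.20 for that of PSMC2, -0.04 for that of PSMC6 and -0.12 for that of PSMD12. The PSME2 loci had -0.16 and -0.17, against -0.37 for PSME2, and the PSMD10 locus, at an FPKM of 2.38 in siNT, had 0.77 against 0.19. The 12 members with a pseudogene locus had a median change of -0.14, and 9 of them were lower. The 31 members without one had -0.31, and 26 of them were lower. Of all named loci, 55.2% were lower. Without the genes that have such loci, the median was -0.24 for the base ATPases and -0.22 for the 19S particle, so the contrast between core and 19S particle was smaller among genes without detected copies. The part of read sharing in these values was not tested.

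The immunoproteasome subunits replace the catalytic beta subunits after interferon or in immune cells. PSMB9, which takes the place of PSMB6, was at 6.28 in siNT and 3.12 in siPAX9, a change of -1.01. PSMB8, which takes the place of PSMB5, was at 36.0 and 28.9, a change of -0.32. PSMB10, the counterpart of PSMB7, was at 15.9 and 16.8, a change of 0.08. PSMB8 and PSMB9 had 8 rows each in the table, and the rows on alternative haplotypes of chromosome 6 were listed at 0 in both groups. The level of PSMB8 in siNT was thus below that of PSMB5, and both were lower in siPAX9. Among the immunoproteasome subunits, PSMB8 and PSMB9 were lower and PSMB10 was slightly higher.

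Genes around the proteasome were read from lists of known function. Of 12 further subunits, chaperones and associated factors, 11 were lower, with a median of -0.24. The share of all named loci that were lower, 55.2%, stands beside this count and those of the lists that follow. TXNL1, a thioredoxin-like protein bound to the 19S particle, was the one past 1.5-fold, at 51.0 in siNT and 26.4 in siPAX9, a change of -0.95. Of 7 regulators of proteasome transcription, 4 were lower and 3 higher. NFE2L1 was at 61.8 and 109.7, a change of 0.83. It was the one gene of all these pathway lists that was higher by 1.5-fold or more, as were 13.5% of all named loci. NFE2L2 was at 67.8 and 63.9. Among the 8 measured ubiquitin shuttles and VCP cofactors, 4 were lower and 4 higher, with none past 1.5-fold. DDI1, the ninth, was below an FPKM of 1. Among the ubiquitin genes and E1 enzymes described here, 4 of 5 were lower, and RPS27A, which encodes ubiquitin fused to a ribosomal protein, had 581.8 and 352.3, a change of -0.72. UBB, a polyubiquitin gene, was at 402.9 and 280.4, a change of -0.52. The mRNA of NFE2L1 was listed higher and most of the subunit genes were listed lower, and a link between them was not tested.

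**Figure D5:**
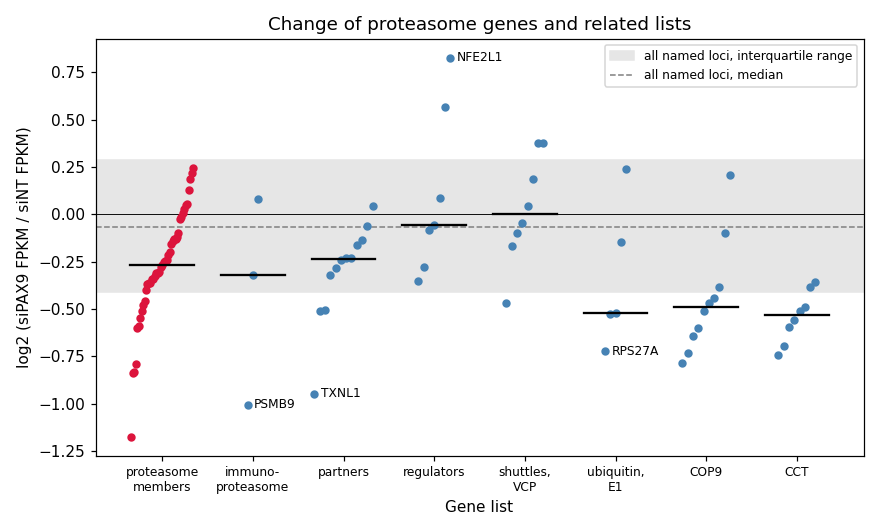
log2 of siPAX9 FPKM over siNT FPKM for the 43 proteasome members (red) and for related gene lists (blue), with the median of each list as a bar, the interquartile range of all named loci as a grey band and their median as a dashed line. The COP9 and CCT medians lie below that of the proteasome, and NFE2L1 is the highest point.

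Other complexes of many subunits gave a scale for these values. The COP9 signalosome is built on the same plan as the 19S lid, and 9 of its 10 genes were lower (55.2% of all named loci were), with a median of -0.49. COPS3, COPS4, COPS6 and COPS8 were lower by 1.5-fold or more, as were 16.7% of all loci, with changes of -0.79, -0.73, -0.60 and -0.64. All 8 genes of the chaperonin CCT were lower, with a median of -0.53, and CCT3, CCT4 and CCT8 were past 1.5-fold at -0.59, -0.69 and -0.75. Every CCT gene had a mean FPKM above 50, where 66.7% of loci between 50 and 100 and 69.9% of those at 100 and above were lower. The changes of CCT genes covered 0.39 on the log2 scale, against 0.71 for the 20S core and 0.72 for the 19S particle. The medians of the core (-0.36) and the 19S particle (-0.14) were thus nearer to 0 than those of COP9 and CCT. These differences have no test.

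The members were spread over 17 chromosomes. Chromosome 14 held 8 of the 45 and chromosome 17 held 7. PSME1 and PSME2, which lie side by side on chromosome 14, had changes of -0.13 and -0.37. PSMD3 and PSME3, which lie apart on chromosome 17, had -0.59 and 0.22. Of the 45 loci, 11 shared their span with another row of the table, among them PSMB7 with NEK6 and PSMG2 with CEP76, and reads from overlapping genes could have been counted to either.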

How the data were processed

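Poly(A)+ RNA of 6 MCF10A samples was sequenced by the authors as single-end reads, aligned to hg19 with Bowtie 2 and quantified with Cufflinks within Partek Flow. The deposited values are FPKM, 1 per locus and group, which the authors combined from 3 samples; scaling between libraries and the annotation used are not given in the sources used here. Columns with the authors' fold changes, test statistics, p-values and q-values were not used. From the FPKM, log2 ratios were computed with no pseudocount, over named loci with a mean FPKM of at least 1. For a symbol with several rows, the row with the highest mean was kept. Members, lists and thresholds were chosen with earlier results of these data known. Described in depth were the catalytic subunits, PSMD14, chaperones, activators, PSMF1, extremes of each role and genes past 1.5-fold; PSMG1, PSMG2 and PSMD9 were picked for the promoter display after their values were seen. Locus starts were written 1-based. Unnamed loci (12972) were searched with blastn 2.17.0 (word size 28) against GENCODE transcripts of release 44 placed on GRCh37, which has the coordinates of hg19. Calculations used Python 3.11.15, numpy 2.4.6 and pandas 2.3.3, and were tested on simulated data. The alternatives were a pseudocount of 1, log2 changes centred on the median of named loci, no minimum or a minimum FPKM of 10, summed rows, rows with 1 symbol and, added after seeing the data, leaving out members with pseudogene loci. A gene of the ubiquitin list is not reported here.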

Additional observations from a re-analysis of the deposited data

How the results depend on the processing

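The counts of members past 2-fold (1) and past 1.5-fold (6), the count lower in siPAX9 (35), the median of all members (-0.27) and the medians of the core rings, lid, PSMF1 and 20S chaperones stayed within 1.5 times of their values under each alternative run. Summing rows and dropping the minimum could not move these values, since no member had several rows and the members under the minimum were listed at 0. Centring, by -0.07, moved the median of the base ATPases to -0.0158, of the other base subunits to -0.0505 and of the 19S particle to -0.0746, and turned that of the activators from -0.06 to 0.00619. With rows of a single symbol, which drops PSME2, the activators were at 0.00827. Without members that have a pseudogene locus, a choice made after seeing the data, the base ATPases were at -0.24, the 19S particle at -0.22, the base chaperones at 0.0453 and the activators at 0.00827. Centring left PSMA7 and PSMD3 short of 1.5-fold, and adding 1 to each FPKM left PSMD3 short. No replicate could be left out, and no paired analysis was possible because the table holds 1 pooled column per group, so results resting on a single sample could not be seen. PSMF1 has no value under a minimum FPKM of 10.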

Other observations

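Antisense transcripts named after proteasome genes were listed higher in siPAX9 where the gene was lower. PSMA3-AS1 had 22.2 FPKM in siNT and 30.5 in siPAX9, a change of 0.46 on the log2 scale, against -0.34 for PSMA3. PSMD5-AS1 had 4.26 and 5.55, and PSMD6-AS2 had 1.54 and 2.16, with changes of 0.38 and 0.49 against -0.15 and -0.34 for PSMD5 and PSMD6. PSMB8-AS1 had 3.06 and 3.64, a change of 0.25, against -0.32 for PSMB8. All 4 pairs with a mean FPKM of at least 1 thus had the antisense transcript higher and the gene lower, as did 54 of the 206 such pairs in the whole table (26.2%), and 60.7% of the antisense transcripts were higher. The choice of these pairs came after their values were known. Whether the libraries kept strand is not given in the sources used here, and without strand the reads of such partners cannot be told apart where they overlap.

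PSMB9 had a change of -1.01, while its neighbour TAP1, the peptide transporter gene of the same interferon-responsive cluster on chromosome 6, had 41.8 FPKM in siNT and 61.2 in siPAX9, a change of 0.55. TAP1 was picked after its value was seen, and its locus is shared with PSMB8 and PSMB8-AS1.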
